A study of Homo sapiens with 6 samples.

Results

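The sensors of the unfolded protein response (UPR) and the factors they act through were followed at the RNA level in MM.1S, a cell line derived from human multiple myeloma, during exposure to enzastaurin, a small molecule that inhibits protein kinase C-beta. The set held 10 genes: ERN1, EIF2AK3, ATF6 and ATF6B, which encode the sensors IRE1alpha, PERK, ATF6 and its homologue, MBTPS1 and MBTPS2, which encode the site-1 and site-2 proteases, and XBP1, EIF2S1, CREB3L2 and WFS1. Its members were all probe sets that the platform annotation pairs with a single gene symbol from this list, 15 of the 22277 probe sets of the table, and another 2 that the annotation pairs with several genes were left out. The arrays were 3 of cells with enzastaurin, taken after 3, 6 and 12 h, and 3 of untreated cells taken at the same times, so each treatment and time had 1 array. The labels name neither a dose of enzastaurin nor a vehicle, and they do not say whether the arrays came from separate cultures.

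The UPR is the signalling system by which a cell senses unfolded protein in the endoplasmic reticulum (ER). IRE1alpha splices the XBP1 messenger RNA so that an active transcription factor is made, PERK phosphorylates eIF2alpha, the product of EIF2S1, which slows translation and favours ATF4, and ATF6 moves to the Golgi, where the site-1 and site-2 proteases release its transcription factor domain. XBP1 is required for the secretory capacity of plasma cells, the cells from which myeloma arises. The sensors are activated by changes in their protein, which an RNA array does not measure, and the single XBP1 probe set gives 1 value for spliced and unspliced RNA together.

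XBP1 is also known as a transcriptional target of ATF6, through an ER stress element, which binds NF-Y and ATF6 and reads CCAAT, 9 bases of any kind, then CCACG. RefSeq promoter windows (GRCh38.p14, 250 bases before the transcription start and 50 from it on) were available for all 10 genes, 12 windows in all, and were searched on both strands. The element was found in 1 of these 12 windows, a window of XBP1, and in 27 of all 35116 windows (0.0769%). The other XBP1 window did not hold it. The shorter core CCACG, which the element contains, was found in 6 of the 12 windows and in 38.1% of all. The core TGACGTGG of the UPR element, which XBP1 itself binds, was found in 0 of the 12 and in 0.729% of all, and the C/EBP-ATF element TGATGCAA, a site of ATF4, in 0 of the 12 and in 0.866% of all. These are letter matches and not measured binding sites.

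The bases before the start are shown for the XBP1 window with the match. They are also shown for the protease genes MBTPS1 and MBTPS2, whose ratios stood highest among the members at 12 h. Capitals mark the ER stress element in XBP1, which runs from base -52 to base -34 with the start counted as 0, and the core CCACG on either strand in MBTPS1. MBTPS2 has no capitals because neither was found there. The regions are chr22:28800570-28800819 on the minus strand for XBP1, chr16:84116943-84117192 on the minus strand for MBTPS1 and chrX:21839367-21839616 on the plus strand for MBTPS2, each written 5′ to 3′ along the gene.
XBP1: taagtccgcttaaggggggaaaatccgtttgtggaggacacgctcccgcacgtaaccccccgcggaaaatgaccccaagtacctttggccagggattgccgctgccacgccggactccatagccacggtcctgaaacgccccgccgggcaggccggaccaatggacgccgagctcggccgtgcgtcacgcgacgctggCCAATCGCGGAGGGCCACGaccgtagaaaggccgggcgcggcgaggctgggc
MBTPS1: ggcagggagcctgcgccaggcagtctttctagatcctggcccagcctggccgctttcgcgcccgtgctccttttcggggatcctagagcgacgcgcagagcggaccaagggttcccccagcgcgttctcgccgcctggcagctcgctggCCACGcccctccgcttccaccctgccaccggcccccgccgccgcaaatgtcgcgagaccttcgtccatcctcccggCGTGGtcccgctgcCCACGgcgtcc
MBTPS2: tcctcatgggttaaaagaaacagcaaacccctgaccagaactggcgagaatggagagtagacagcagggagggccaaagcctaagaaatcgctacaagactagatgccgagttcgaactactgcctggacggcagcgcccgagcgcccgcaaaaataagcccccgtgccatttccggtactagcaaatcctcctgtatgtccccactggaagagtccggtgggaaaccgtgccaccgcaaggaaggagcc

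All values are MAS5 intensities on a linear scale, or log2 ratios of enzastaurin over untreated cells at the same time. Probe sets in the upper 50% of mean log2 intensity, with a geometric mean of at least 63.3, were kept for testing: 11108 of the 22215 that are not controls, and 12 of the 15 members, which cover 9 of the 10 genes. The filter used the mean over all 6 arrays and removed the only ERN1 probe set, 1 of 2 for ATF6B and 1 of 3 for EIF2S1. MBTPS2 was kept only through the enzastaurin arrays, with a geometric mean of 80.0 there against 54.6 in untreated cells, and ATF6B 203168_at only through the untreated arrays, with 59.0 with enzastaurin against 111 in untreated cells. Those probe sets had to differ to be kept in this way, so counts over the kept members are given below as descriptions. Of the plasma cell markers 9 of 10 were kept, with array medians of 1030 to 2830, against 1 of 8 T and NK cell markers and 0 of 6 monocyte markers, with array medians of 29.4 to 38.7 and 22.1 to 33.0. Of the other marker lists, 2 of 4 measured B cell, 2 of 3 erythroid and 2 of 5 stromal genes were kept, with array medians of 57.6 to 87.2, 121 to 419 and 28.4 to 66.9. The summed intensity of the erythroid markers was 1526, 825 and 335 with enzastaurin at 3, 6 and 12 h, against 980, 1043 and 1389 in untreated cells. Median intensities ran from 62.2 to 67.6 over the 6 arrays. Probe sets for ribosomal RNA had mean log2 intensities of 9.99, 3.79 and 3.02 with enzastaurin at 3, 6 and 12 h, against 3.39, 11.98 and 9.29 in untreated cells, so the sign of this difference at 3 h was opposite to that at 6 h and 12 h. For ACTB the 3′ signal over the 5′ signal, a measure of RNA integrity, was 2.004, 0.57 and 0.86 on the log2 scale in the enzastaurin arrays, against 1.89, 1.16 and 1.60 in the untreated arrays, so its difference was 0.11, -0.59 and -0.74. For GAPDH the same difference was -0.05, -0.33 and -0.07, so its ratio lay below that of untreated cells at all 3 times. With enzastaurin, the erythroid sum, ribosomal RNA and ACTB ratio thus lay above the untreated array at 3 h and below it later. The GAPDH ratio did not share this order. The part of these measures in the results was not tested.

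ERN1 was the one gene without a kept probe set. Its probe set, 207061_at, had intensities of 56.6, 64.9 and 73.9 with enzastaurin at 3, 6 and 12 h, against 69.7, 41.4 and 62.4 in untreated cells. The enzastaurin array was the lower of the pair at 3 h and the higher at 6 h and 12 h, with log2 ratios of -0.30, 0.65 and 0.25. In bulk RNA such a ratio cannot tell fewer expressing cells from less RNA per cell. With no filter on intensity, its mean log2 ratio in limma was 0.20 (SE 0.35, adjusted p = 0.992).

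EIF2AK3, the gene of PERK, had intensities of 967, 913 and 1358 with enzastaurin at 3, 6 and 12 h and of 794, 1140 and 920 in untreated cells (218696_at). The highest array was that of enzastaurin at 12 h and the lowest that of untreated cells at 3 h, and the groups overlapped. The log2 ratios were 0.28, -0.32 and 0.56, and their mean of 0.18 had a 95% interval of -0.42 to 0.77 (SE 0.27, adjusted p = 0.987).

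ATF6 was read by a pair of probe sets that gave different pictures. On 203952_at the intensities were 252, 307 and 410 with enzastaurin at 3, 6 and 12 h, against 253, 421 and 373 in untreated cells. Both groups had their lowest value at 3 h, and the ratios of -0.01, -0.45 and 0.14 had no common sign. On 217550_at the intensities were 261, 488 and 383 with enzastaurin and 202, 292 and 273 in untreated cells. Here each enzastaurin array lay above its untreated partner, although the groups overlapped, with log2 ratios of 0.36, 0.74 and 0.49. The mean log2 ratio was -0.11 on the first (95% interval -0.77 to 0.55, adjusted p = 0.993) and 0.53 on the second (-0.12 to 1.18, adjusted p = 0.982). Under the deposited scaling 217550_at was the only kept member higher at all 3 times, a pattern that 9.46% of all kept probe sets shared. With MBTPS2 the count was 2 under each of the other scalings, against 8.73% to 12.9% of all.

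ATF6B, the homologue of ATF6, was lower with enzastaurin on each pair of arrays on its kept probe set, 203168_at, but did not pass the test. Its intensities were 111, 51.5 and 35.9 with enzastaurin at 3, 6 and 12 h, against 176, 64.9 and 118 in untreated cells. Both groups had their highest value at 3 h, and the untreated 6 h array lay below the enzastaurin 3 h array. The log2 ratios were -0.66, -0.33 and -1.72, the last a 3.30-fold lower intensity. The mean was -0.91 (SE 0.35, 95% interval -1.68 to -0.13, adjusted p = 0.810), and without the 12 h pair it was -0.50. The enzastaurin 12 h intensity is low, and no detection call is at hand to say whether it lies above background. The weak second probe set, 216208_s_at, had 23.9, 11.5 and 5.77 with enzastaurin and 4.58, 23.6 and 15.95 in untreated cells. Its ratios of 2.38, -1.03 and -1.47 rest on these low intensities and have no common sign.

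**Figure D1:**
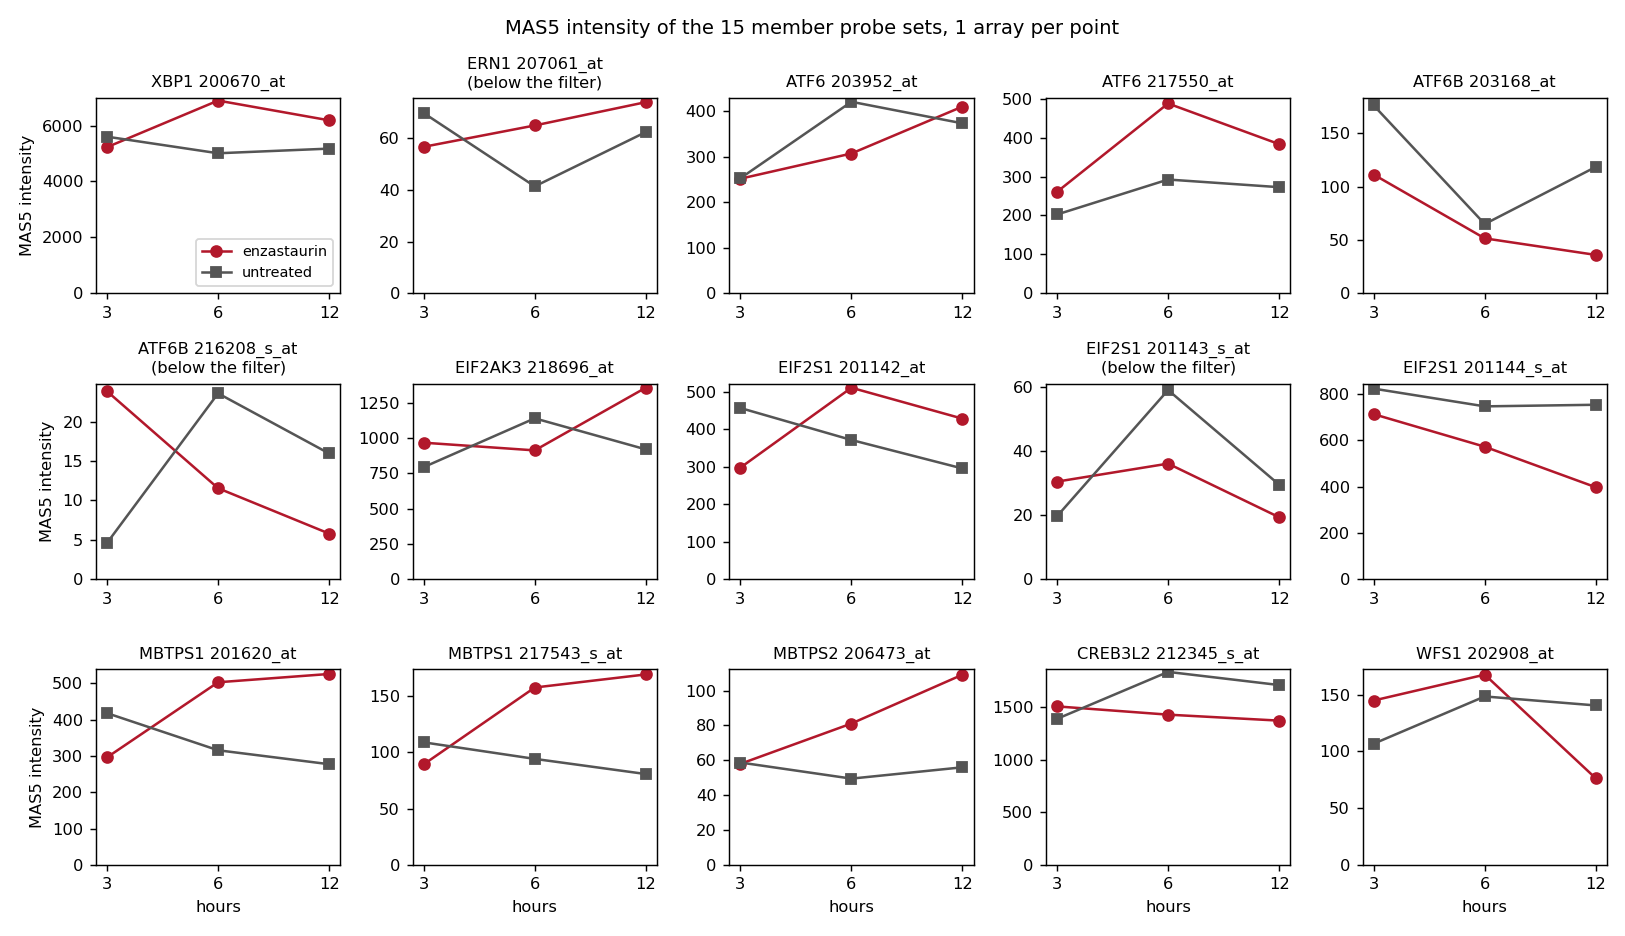
MAS5 intensity (linear axis from 0, with its own range in each panel) of the 15 member probe sets against hours, 1 array per point, enzastaurin in red circles and untreated cells in grey squares. The lines of MBTPS1 and of EIF2S1 201142_at cross between 3 h and 6 h, and EIF2S1 201144_s_at is the panel in which all 3 enzastaurin points lie below all 3 untreated points.

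The protease genes had the highest ratios of the set at 12 h, and at 6 h they stood highest together with ATF6 217550_at. MBTPS1, whose site-1 protease makes the first cut in ATF6 and in the sterol-regulated SREBP factors, had intensities of 296, 503 and 526 with enzastaurin at 3, 6 and 12 h, against 418, 316 and 277 in untreated cells (201620_at). With time the enzastaurin arrays were higher and the untreated arrays lower, so that the sign of the ratio differed between 3 h and the later times. The second MBTPS1 probe set, 217543_s_at, ordered the 6 arrays in the same way, with 89.2, 157 and 169 with enzastaurin and 109, 94.1 and 80.6 in untreated cells. The log2 ratios were -0.50, 0.67 and 0.92 on the first and -0.29, 0.74 and 1.07 on the second. MBTPS1 thus had a 2.10-fold higher intensity on 217543_s_at at 12 h, the only kept member at least 2-fold higher at any time under the deposited scaling.

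MBTPS2, whose site-2 protease makes the second cut within the membrane, had intensities of 57.9, 81.1 and 109 with enzastaurin and 58.7, 49.5 and 56.0 in untreated cells (206473_at). The arrays were alike at 3 h and the enzastaurin arrays were above all untreated arrays at 6 h and 12 h, with log2 ratios of -0.02, 0.71 and 0.96. These levels lie near the filter. None of the 3 protease probe sets passed the treatment test: the mean log2 ratios were 0.37 and 0.51 for MBTPS1 (95% intervals -0.39 to 1.12 and -0.24 to 1.26) and 0.55 for MBTPS2 (-0.18 to 1.29), with an adjusted p of 0.987 for each. When only the later pairs, 6 h and 12 h, were fitted, the means were 0.80, 0.91 and 0.84, with adjusted p-values of 0.225, 0.196 and 0.293. Without the 12 h pair they were 0.0876, 0.23 and 0.35, and without the 6 h pair 0.21, 0.39 and 0.47.

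XBP1, the factor made after IRE1alpha splicing, had the narrowest interval of the 12 kept members. Its intensities were 5229, 6896 and 6189 with enzastaurin at 3, 6 and 12 h, against 5604, 5010 and 5177 in untreated cells (200670_at). The highest array was 1.32 times the lowest with enzastaurin and 1.12 times in untreated cells. The log2 ratios were -0.10, 0.46 and 0.26, a 1.38-fold higher intensity at 6 h and 1.20-fold at 12 h. The mean of 0.21 had a 95% interval of -0.13 to 0.54 (SE 0.15, adjusted p = 0.987).

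EIF2S1, which encodes the eIF2 subunit that PERK phosphorylates, was read by 3 probe sets that disagreed in sign. On 201144_s_at the intensities were 713, 572 and 397 with enzastaurin at 3, 6 and 12 h, against 823, 747 and 753 in untreated cells. This was the only one of the 12 kept members in which the groups did not overlap, which 10.5% of all kept probe sets showed, and its mean log2 ratio was -0.51 (95% interval -1.14 to 0.13, adjusted p = 0.987). On 201142_at they were 297, 510 and 428 with enzastaurin and 456, 371 and 295 in untreated cells. There the enzastaurin array was lower at 3 h and higher later, with log2 ratios of -0.62, 0.46 and 0.54 and a mean of 0.13 (-0.60 to 0.85, adjusted p = 0.993). On the weak 201143_s_at the ratios of 0.63, -0.71 and -0.61 ran opposite to these, at intensities of 19.3 to 36.0 with enzastaurin and 19.6 to 58.9 in untreated cells. A direction for EIF2S1 can therefore not be given from these probe sets.

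CREB3L2, an ER membrane factor of the ATF6 kind that the same proteases release, had intensities of 1508, 1430 and 1373 with enzastaurin at 3, 6 and 12 h, against 1390, 1837 and 1712 in untreated cells (212345_s_at). The enzastaurin arrays varied little and lay below the untreated ones at 6 h and 12 h, with log2 ratios of 0.12, -0.36 and -0.32 and a mean of -0.19 (95% interval -0.70 to 0.32, adjusted p = 0.987). WFS1, an ER membrane protein that keeps ATF6 in check and is mutated in Wolfram syndrome, had 145, 168 and 76.2 with enzastaurin and 107, 148 and 141 in untreated cells (202908_at). The enzastaurin 12 h array was the lowest of the 6. Its log2 ratios were 0.44, 0.18 and -0.88, and their mean was -0.09 (-0.83 to 0.66, adjusted p = 0.996).

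**Figure D2:**
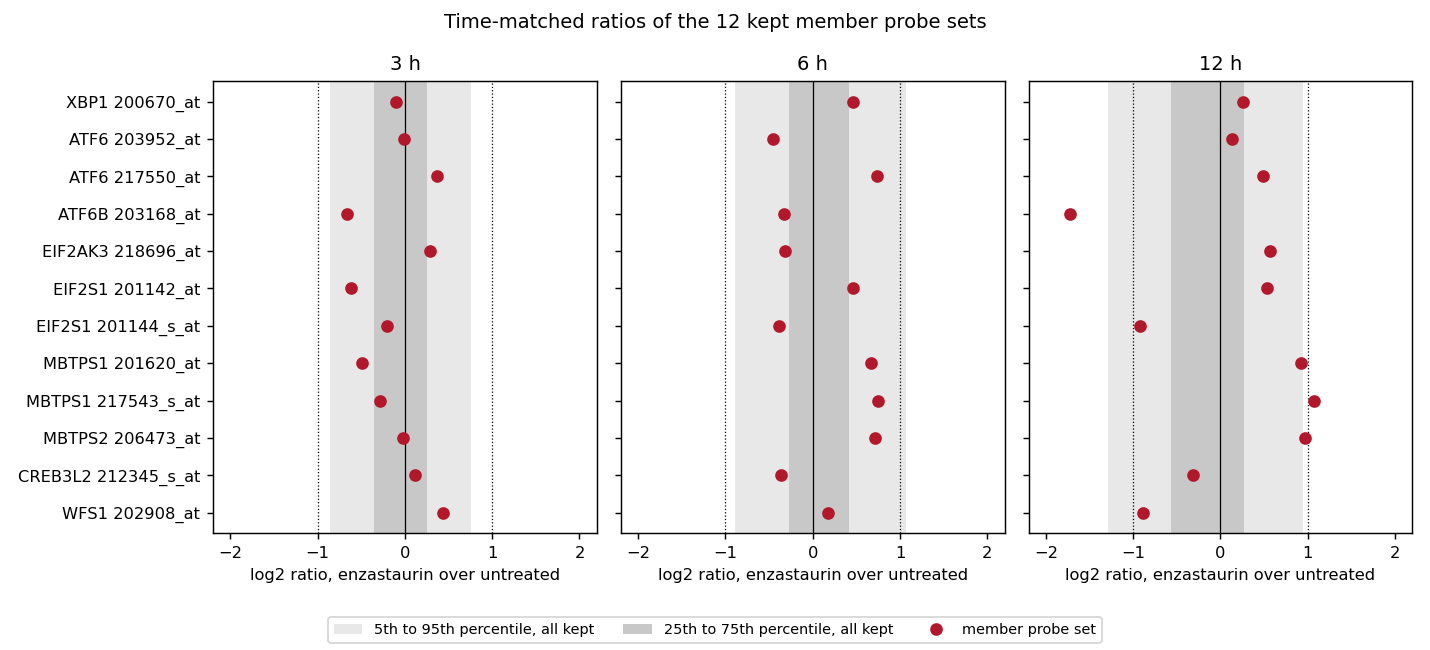
Log2 ratios of enzastaurin over untreated cells for the 12 kept member probe sets at 3, 6 and 12 h, 1 pair of arrays each, over grey bands that give the spread of all 11108 kept probe sets. Dotted lines mark 2-fold. ATF6B 203168_at at 12 h, at -1.72, and MBTPS1 217543_s_at at 12 h, at 1.07, are the points beyond them.

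Counted together, few members were 2-fold apart at a single time, where 1 array on each side allows no test. Of the 12 kept members, 0 were higher by 2-fold or more and 0 lower by as much at 3 h, against 2.13% and 3.06% of all kept probe sets. At 6 h the counts were again 0 and 0, against 5.87% and 3.61%. At 12 h they were 1 higher and 1 lower, against 4.38% and 9.92%, which with 12 members is near the background. The count of higher members at 12 h was 2 with quantile normalization, against 6.12% of all kept probe sets. It was 3 with equal medians of kept probe sets, against 7.30%. Median log2 ratios of the 12 were -0.06, 0.32 and 0.37 at 3, 6 and 12 h, against -0.05, 0.07 and -0.16 for all kept probe sets. The medians of all 15 were -0.02, 0.18 and 0.25. With all 15 members, the weak ATF6B probe set adds 1 higher at 3 h, 1 lower at 6 h and 1 lower at 12 h.

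The most frequent order among the kept members was lower with enzastaurin at 3 h and higher at 6 h and 12 h. It was seen in 5 of the 12 (XBP1, both MBTPS1 probe sets, MBTPS2 and EIF2S1 201142_at), against 18.8% of all kept probe sets, and in 6 of all 15 with ERN1. MBTPS2 is among them although it was kept through its enzastaurin arrays, so its later ratios are part of why it was kept. The 3 h ratio of MBTPS2 was so near 0 that its sign turned under other scalings, as did that of ATF6 203952_at. The count was then 4 of the 12, against 15.4% to 20.3% of all kept probe sets. The opposite order was seen in 1 of 12 (CREB3L2), against 18.9% of all, and lower at all 3 times in 2 (ATF6B and EIF2S1 201144_s_at), against 14.0%.

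Tests over all 6 arrays called none of the members. The treatment fit, which takes the time point as a block, called 0 of 12 members at an adjusted p under 0.05 and 0.00900% of all 11108 probe sets, a single one. ATF6B 203168_at was the 1 member of 12 with an unadjusted p under 0.05 in limma, against 5.59% of all probe sets. This probe set was kept only through the untreated arrays, so nothing is read from this count. The slope of the effect per doubling of hours called 0 of 12 members, against 1.63% of all, and 0 had an unadjusted p under 0.05 in limma, against 11.3%. Slopes were largest for MBTPS1, at 0.71 (201620_at, 95% interval -0.03 to 1.45, adjusted p = 0.466) and 0.68 (217543_s_at, -0.09 to 1.44, adjusted p = 0.527), and lowest for WFS1, at -0.66 (-1.42 to 0.10, adjusted p = 0.533).

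The fit restricted to the later pairs, 6 h and 12 h, also called 0 of 12 members, against 3.17% of all probe sets. In it 4 of 12 members had an unadjusted p under 0.05 in limma, against 16.2% of all, namely both MBTPS1 probe sets, MBTPS2 and ATF6B. MBTPS2 and ATF6B are the probe sets kept through 1 group only, and nothing is read from this count. A missed threshold in a fit with so few arrays does not show that a gene was unchanged.

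**Figure D3:**
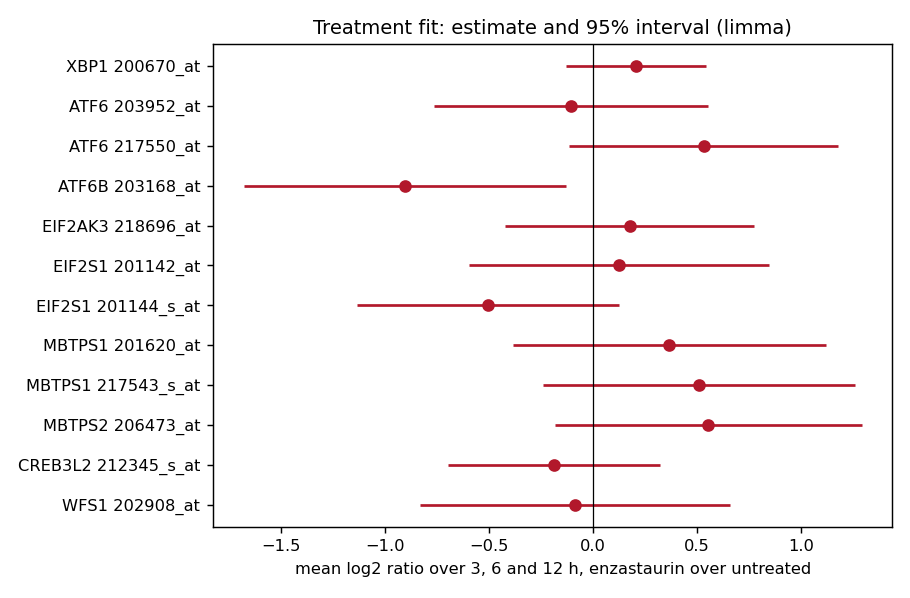
Mean log2 ratio of enzastaurin over untreated cells for the 12 kept member probe sets over 3 time-matched pairs (points) with the 95% interval from limma (lines). The intervals of 11 members include 0, and that of ATF6B 203168_at, -1.68 to -0.13, does not before adjustment for the number of probe sets. ATF6B 203168_at was kept only through its untreated arrays, so nothing is read from this interval.

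The genes downstream of the sensors were then counted from lists chosen by role. Slopes past the test depended on the setting: of the 4 list genes past it, all lost their call with no filter and without the intensity trend, and only EDEM1 kept it with equal medians (adjusted p = 0.0426) and with quantile normalization (adjusted p = 0.0106). The target list of PERK and ATF4, the branch of eIF2alpha phosphorylation, had 17 kept genes of 20. At least 2-fold higher were 5 at 3 h, 4 at 6 h and 8 at 12 h. Among all kept probe sets these shares were 2.13%, 5.87% and 4.38%. At least 2-fold lower were 0 at each time, against 3.06%, 3.61% and 9.92% of all. The shares count all kept probe sets, and the list counts 1 per gene. Its median log2 ratios were 0.52, 0.64 and 0.96. CHAC1, which degrades glutathione, had intensities of 695, 52.2 and 287 in the enzastaurin arrays, against 25.4, 35.9 and 46.7 in untreated cells, and a mean log2 ratio of 2.65 (SE 0.60, adjusted p = 0.346), which was 1.58 without the 3 h pair and 3.70 without the 6 h pair. DDIT3, the gene of CHOP, had 437, 148 and 357 with enzastaurin and 91.5, 68.5 and 92.7 in untreated cells, with a mean of 1.77 (SE 0.33, adjusted p = 0.160). None of the 17 passed the treatment test, and 1 passed the slope test, against 1.63% of all kept probe sets. This was SLC7A11, the cystine transporter (slope 1.41, SE 0.41, adjusted p = 0.0363), whose log2 ratios were -0.13, 0.57 and 2.68.

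The target list of spliced XBP1 and ATF6 had 22 kept genes of 24 and showed no common direction. At least 2-fold higher were 0, 0 and 2 genes at 3, 6 and 12 h, and at least 2-fold lower were 0, 1 and 3, against 4.38% higher and 9.92% lower among all kept probe sets at 12 h. Medians were 0.18, 0.39 and -0.33. The treatment fit called 0 of 22 and the slope fit 2, in opposite directions, against 1.63% of all kept probe sets. EDEM1, which takes misfolded glycoproteins to degradation, had 962, 1862 and 2496 with enzastaurin at 3, 6 and 12 h, against 1588, 1200 and 717 in untreated cells (slope 1.26, SE 0.30, adjusted p = 0.00383). SDF2L1, an ER protein that works with the chaperone BiP, had 806, 250 and 173 in the enzastaurin arrays, against 432, 572 and 578 in the untreated ones (slope -1.32, SE 0.37, adjusted p = 0.0308). DNAJC3, an inhibitor of PERK also known as p58IPK, had log2 ratios of 0.73, 0.78 and 1.25 and a mean of 0.92 (SE 0.30, adjusted p = 0.621).

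Of the 25 genes with an ER stress element in a promoter window, 14 were on the array and 12 had a kept probe set, XBP1 among them. Of these 12, 5 are also in the target list of spliced XBP1 and ATF6. Median log2 ratios of the 12 were 0.04, 0.20 and -0.17 at 3, 6 and 12 h, against -0.05, 0.07 and -0.16 for all kept probe sets. Above 0 were 7, 8 and 3 of the 12. The share of all kept probe sets above 0 was not counted, so nothing is read from these counts. At 12 h the median of all kept probe sets was itself below 0. XBP1, at 0.26, and the chaperone genes CALR, at 0.35, and CANX, at 0.25, were those above 0 at 12 h. HSPA5, the gene of BiP, which holds all 3 sensor types inactive, had 0.08, 0.32 and -0.61, and CRELD2, a secreted ER stress protein, had 0.69, 0.39 and -0.61. The ratios farthest from 0 were those at 3 h of FICD, an enzyme that modifies BiP, at 1.73, and of TRIM5, an antiviral factor, at -1.94. FICD had intensities of 481, 251 and 279 in the enzastaurin arrays, against 145, 261 and 289 in the untreated ones.

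Among partners and adaptors of the sensors, 11 of 18 genes were kept, with 0 called by the treatment fit and medians of 0.04, 0.12 and -0.01. The slope fit called 1 of the 11, against 1.63% of all kept probe sets. This was MAP3K5, the kinase ASK1 that links IRE1alpha to JNK (slope -1.32, SE 0.38, adjusted p = 0.0358). Its intensities were 211, 100 and 95.3 with enzastaurin at 3, 6 and 12 h, against 127, 303 and 358 in untreated cells. NFE2L2, the gene of NRF2, had a mean log2 ratio of 0.40, and MAPK9, the gene of JNK2, one of 0.25.

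The other eIF2alpha kinases and the subunits of eIF2 and its exchange factor eIF2B had 8 kept genes of 11. Their medians were 0.19, -0.11 and -0.58, against -0.05, 0.07 and -0.16 for all kept probe sets. At 12 h 2 were at least 2-fold lower, EIF2B4 at -1.30 and EIF2B5 at -1.05, against 9.92% of all kept probe sets. Over all times the mean log2 ratio was -0.50 for EIF2B5, -0.31 for the kinase EIF2AK2 (PKR) and -0.29 for EIF2B4, none of them called. The other substrates of the site-1 and site-2 proteases, with their regulators and the factors NF-Y and YY1 that act with ATF6, had 11 kept genes of 14 and medians of -0.08, 0.19 and -0.10. SREBF1, the gene of SREBP-1, had a mean of -0.54, CREB3 one of 0.50 and INSIG1 one of 0.44, none of them called. Neither fit called a gene of these last lists. Without the 3 h pair the treatment fit called 2 of 22 targets of spliced XBP1 and ATF6 (EDEM1 and SDF2L1), 3 of 17 targets of PERK and ATF4, 1 of 11 partners (MAP3K5), and 0 of 8 and 0 of 11 genes of the last lists, against 3.17% of all kept probe sets. The 3 were DDIT4, an inhibitor of mTOR signalling (adjusted p = 0.016), DDIT3 (adjusted p = 0.0274) and SLC3A2, the partner chain of the SLC7A11 transporter (adjusted p = 0.0321).

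**Figure D4:**
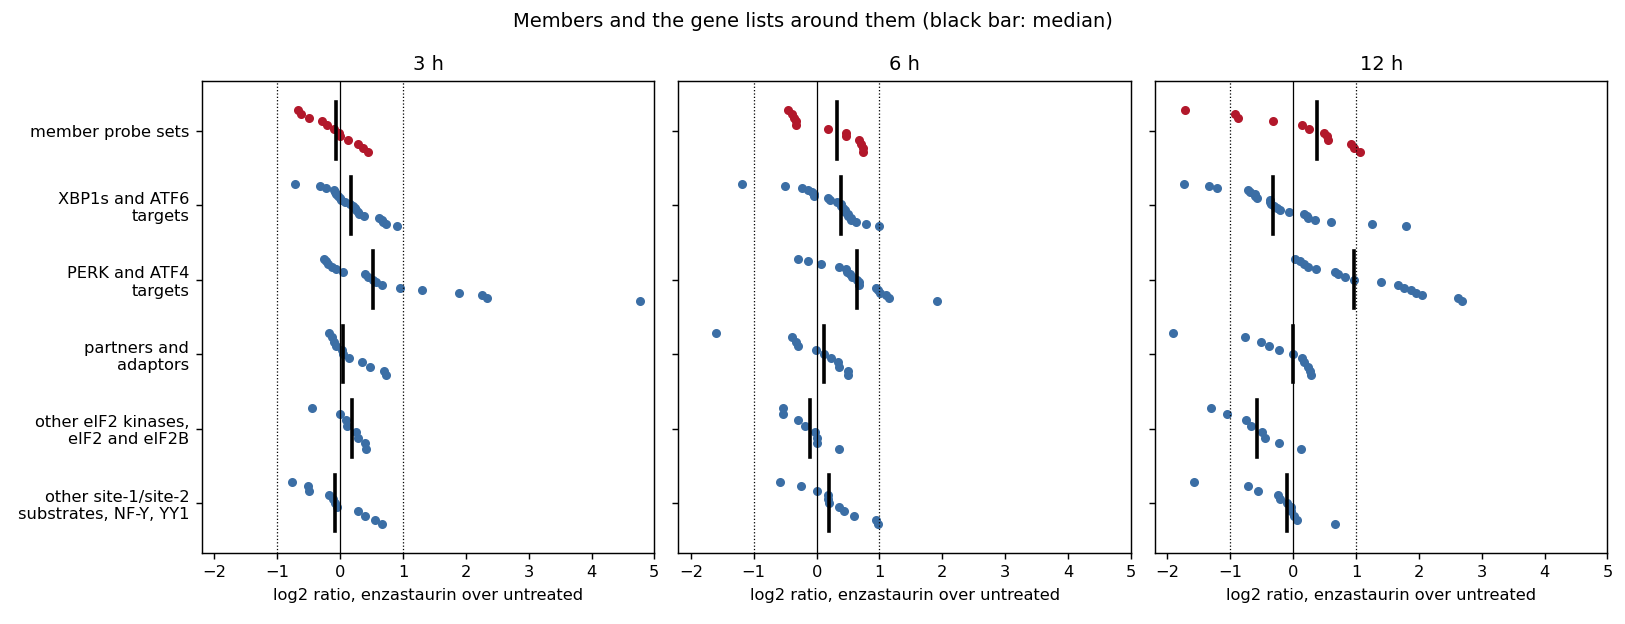
Log2 ratios of enzastaurin over untreated cells at 3, 6 and 12 h for the 12 kept member probe sets (red) and the kept genes of 5 lists around them (blue, 1 probe set per gene), with medians as black bars and 2-fold as dotted lines. PERK and ATF4 targets reach 4.78 at 3 h (CHAC1), and the members stay between -1.72 and 1.07 at all times.

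The genes most like a member in log2 intensity over the 6 arrays were picked as the highest of 11108 probe sets, so their correlations are a description and carry no p. For XBP1 they were the integrin ITGB1, the receptor NOTCH2 and the chemokine receptor CCR1, with Pearson r of 0.993, 0.991 and 0.987. The order of their log2 ratios over 3, 6 and 12 h was that of XBP1, with -0.21, 0.85 and 0.49 for ITGB1. For EIF2AK3 they were the kinase MAP2K2 (0.990), the alanyl-tRNA synthetase AARS1 (0.989) and RNF24 (0.985). For ATF6 203952_at they were NFKBIB (0.991), ACVRL1 (0.985) and BMP6 (0.982).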

How the data were processed

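Total RNA was labelled with biotin and hybridised to Affymetrix arrays, and the deposited values are linear intensity values of probe sets, which the authors computed by MAS5 according to the submitters' processing notes. The sources used here give no version, scaling target or detection calls. The authors' scaling was kept. Intensities were floored at 1 and log2 transformed, and control probe sets were left out. Symbols came from the platform annotation, and list genes were matched to it through Entrez identifiers in RefSeq.

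The treatment effect was estimated in R 4.3.3 by limma 3.58.1, using lmFit and eBayes with an intensity trend, with the time point, which the labels share between an enzastaurin and an untreated array, as a block. It had 2 residual degrees of freedom and a prior of 9.41. The slope fit had 1 and an infinite prior. P-values were adjusted by Benjamini-Hochberg over all 11108 kept probe sets. They reflect only how these arrays vary, which may be technical variation. The residual of the treatment fit is how the ratio differs between times, so a change of the effect with time counts there as error. With an infinite prior, the standard errors of the slope fit come from the intensity trend over all probe sets. They do not come from the scatter of the single probe set. Precision is limited by the number of arrays. Probe sets and not genes were fitted, because membership counts probe sets.

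Members and lists were chosen with earlier results of these data known. Every member was described. Of each list the genes past the treatment or slope test were named, filled to 3 by the size of the mean ratio, and the genes named for an ER stress element and for the fit without the 3 h pair were picked with their values in view. The 3 genes most correlated with XBP1, EIF2AK3 and ATF6 were named, and ERN1 was left out because its probe set was not kept. The fits were tested on simulated data. Alternatives changed the scaling, floor, filter, probe set choice, variance prior and block, or left out each time pair.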

Additional observations from a re-analysis of the deposited data

Results flagged for a closer look

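ATF6B probe set 216208_s_at was at least 2-fold higher with enzastaurin at 3 h (log2 ratio 2.38) and at least 2-fold lower at 6 h and 12 h, a difference between times that was not tested, at intensities below the filter. Slopes over time passed the test in EDEM1 (1.26), SLC7A11 (1.41), SDF2L1 (-1.32) and MAP3K5 (-1.32), a difference between times that some other settings did not call. The difference in ribosomal RNA intensity also changed sign between 3 h and the later times, and its part was not tested.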

How the results depend on the processing

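The members were called in none of the 129 alternative values of the treatment fit and none of the 81 of the slope fit, with lowest adjusted p-values of 0.196 (treatment, without the 3 h pair) and 0.367 (slope, quantile normalization). Single-time ratios of members moved by over 0.1 in 20 of 207 values, by 0.226 at most. The changes of floor, filter and probe set choice left these ratios as they were, so only the scalings could move them. All moves were at 12 h except that of ATF6B at 6 h with quantile normalization. At 12 h every kept member moved with equal medians of kept probe sets, and several moved with quantile normalization. Over all probe sets the treatment fit called 1 as reported, and 0 with no filter, 4 with 1 probe set per gene, 0 without the intensity trend, 3 without the time block, 4 with equal medians of kept probe sets (added after seeing the data), and 0 to 352 without a time pair, 0 without the 6 h or the 12 h pair and 352 without the 3 h pair. Slope calls were 181 as reported and 53 with equal medians, 82 with quantile normalization, 39 with no filter, 98 with 1 probe set per gene, 32 without the trend and 15 with equal medians of kept probe sets. That scaling and quantile normalization moved the 12 h median of all kept probe sets by 0.19 and 0.14. EDEM1 was called by the slope fit with equal medians and quantile normalization, and SDF2L1, SLC7A11 and MAP3K5 were not; none of the 4 was called with no filter, without the trend or with equal medians of kept probe sets. Counts at least 2-fold apart at 3, 6 and 12 h were 1630, 2830 and 2148 higher and 1920, 1704 and 2321 lower with no filter, and 129, 383 and 265 higher and 181, 220 and 712 lower with 1 probe set per gene, which tests fewer. With equal medians of kept probe sets 811 (7.30%) were higher and 716 (6.45%) lower at 12 h, and 3 of the 12 kept members were then at least 2-fold higher. Without a time pair the mean ratio changed sign for ATF6 203952_at (-0.23 to 0.0651), EIF2AK3 (-0.018 to 0.42), EIF2S1 201142_at (-0.0796 to 0.50), WFS1 (-0.35 to 0.31), EDEM1 (-0.0442 to 1.22) and EIF2B4 (-0.65 to 0.21), and the slope changed sign for EIF2AK2 (0.0373 with quantile normalization and 0.0444 with equal medians of kept probe sets) and INSIG1 (0.045 with quantile normalization). The cause of these shifts was not tested.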
